A study of Homo sapiens with 8 samples.

Results

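The genes described here are 32 targets of the hypoxia-inducible factors (HIF) whose products act outside glycolysis, chosen by symbol from the 18164 genes listed for 8 breast tumors. All 32 were found in the table. The tumors grew from HCC1937, an established human triple-negative breast cancer cell line, after orthotopic injection into the inguinal fat pad. The hosts were NCG mice, which lack a working adaptive immune system through mutations of Prkdc and Il2rg on a NOD background. Treatment began when tumors measured 100 to 150 mm3. The NMN group (n = 4) was given 500 mg/kg/day of nicotinamide mononucleotide, from which cells make NAD+, and the Vehicle group (n = 4) was given vehicle. All tumors came from the same line, so they stand for 1 genetic background, and the age and sex of the mice and the length of treatment were not given in the sources used here. Whether the 8 tumors grew in 8 different mice is not stated in the labels, and p-values therefore refer to the spread among these tumors only, which may be technical.

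HIF is a transcription factor made of an oxygen-labile alpha subunit and a stable beta subunit. In the presence of oxygen, prolyl hydroxylases mark the alpha subunit for destruction by the VHL ubiquitin ligase. When oxygen falls, the alpha subunit persists, pairs with ARNT and binds a short core sequence near its target genes. Besides glycolytic enzymes, these targets encode chromatin demethylases, secreted hormones, lipid and redox proteins of the endoplasmic reticulum, and feedback regulators of HIF itself. In solid tumors, many of them are raised where the supply of blood is poor.

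In NMN tumors 31 of the 32 genes had the higher mean, against 51.0% of the 13358 genes tested, and none passed the test over all genes. Their median log2 fold change was 0.39, whereas that of all tested genes was 0.00. The 32 genes were chosen with earlier results of these data known, so these values only describe them and no test was made over the list. The difference came mainly with tumors NMN 1, NMN 2 and NMN 3. For 28 of the 32 genes, NMN 4 fell inside the Vehicle range. Largest in fold change were STC1, PPFIA4, BHLHE40, VLDLR, ANKRD37 and SLC6A8, and the 3 lowest were CSRP2, NOL3 and BHLHE41.

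Values are TPM, a level per transcript length scaled to a fixed total in each tumor. Each gene was compared on log2(TPM + 1) with limma, which fits all tested genes together, and p-values were adjusted over all of them by Benjamini-Hochberg at 0.05. A fold change on this scale understates the change of genes at low levels. Of all tested genes 0 passed, or 0% (smallest adjusted p = 0.221 with limma). An unadjusted p under 0.05 with NMN higher was found for 17 of the 32 genes, against 4.79% of all tested genes, and with NMN lower for 0, against 2.15%. The count of 17 became 10 when NMN 2 or NMN 3 was left out and 11 with median-of-ratios scaling, where the shares of all tested genes were 5.46%, 2.84% and 5.12%. The 4 NMN values lay above all 4 Vehicle values for 2 of the 32, STC1 and INSIG2, against 2.08% of all tested genes, and below them for 0, against 0.966%. STC1 reached the level needed for testing only through the NMN tumors, so it had to differ. Without it, 1 of 31 genes had no overlap, 30 of 31 genes had the higher mean, 16 had an unadjusted p under 0.05, and the median was 0.37.

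**Figure D1:**
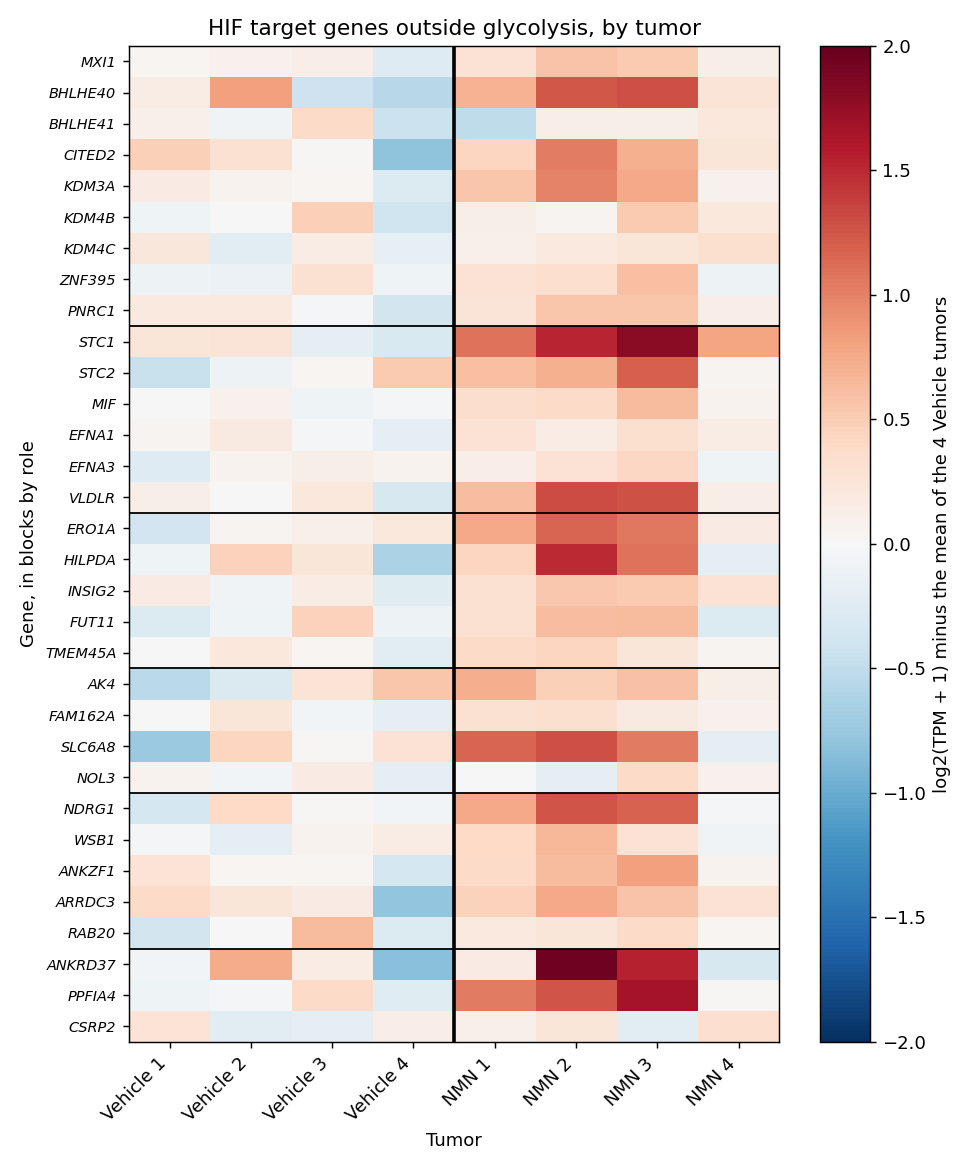
Each row is 1 of the 32 genes, in blocks by role from transcription regulators at the top to scaffold proteins at the bottom, and each column is 1 tumor. Color gives log2(TPM + 1) minus the mean of the 4 Vehicle tumors. NMN 2 and NMN 3 carry the strongest color, up to 1.94 for ANKRD37 in NMN 2, whereas NMN 4 resembles the Vehicle columns in most rows apart from STC1.

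Counted tumor by tumor, NMN 1 lay above all 4 Vehicle tumors for 20 of the 32 genes, where 16.4% of all tested genes did so. NMN 2 lay above them for 24 genes, against 10.8% of all tested genes, and NMN 3 for 28 genes, against 19.8%. NMN 4 lay above them for only 4, CSRP2, INSIG2, KDM4C and STC1, although 32.3% of all tested genes were above the Vehicle range in that tumor, the highest share of the 4. Below all 4 Vehicle tumors lay BHLHE41 in NMN 1, NOL3 in NMN 2 and CSRP2 in NMN 3, 1 of the 32 in each, against 15.4%, 32.1% and 19.1% of all tested genes, and 0 in NMN 4, against 5.43%. The median difference of the 32 genes from the Vehicle mean was 0.37, 0.59 and 0.60 on the log2 scale in NMN 1, NMN 2 and NMN 3 and 0.08 in NMN 4, where the median of all tested genes was 0.01, -0.10, -0.00 and 0.12. In 15 of the 32, exactly 3 NMN tumors lay above the Vehicle range, and in all 15 the tumor not above it was NMN 4. Over all tested genes 842, or 6.30%, had exactly 3 NMN tumors above, and NMN 4 was the one not above in 235 of them, or 27.9%. The Vehicle tumors were not uniform either. Vehicle 4 had the lowest of the 8 values for 17 of the 32 genes, against 20.4% of all tested genes.

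**Figure D2:**
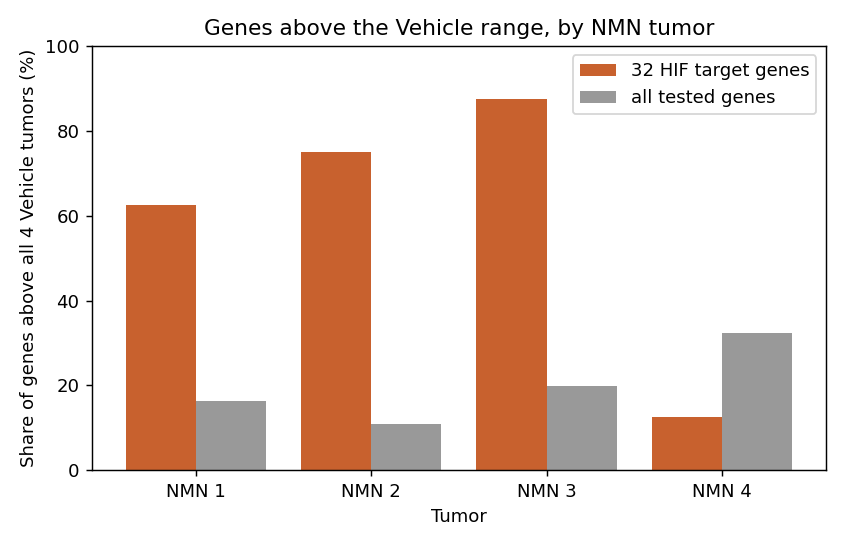
Bars give, for each NMN tumor on the x axis, the percent of genes whose TPM lies above that of all 4 Vehicle tumors, for the 32 HIF target genes and for the 13358 tested genes. The share of the HIF target genes is 62.5%, 75% and 87.5% in NMN 1, NMN 2 and NMN 3 and 12.5% in NMN 4, while that of all tested genes is highest in NMN 4.

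Levels of marker genes of other cell types also differed between these libraries. Of 17 skeletal muscle marker genes, of which 0 were at 0 in every tumor, 16 were tested and all 16 had the lower mean in NMN tumors. All 16 had an unadjusted p under 0.05 with limma, against 2.15% of all tested genes with NMN lower, and 0 passed over all genes. The summed level of the 17 markers ran from 484 to 2847 TPM in Vehicle tumors. It was 57.0, 36.2 and 53.0 TPM in NMN 1, NMN 2 and NMN 3 and 709.5 TPM in NMN 4. The 10 fibroblast markers had a sum between 192 and 292 TPM in Vehicle tumors, 121, 132 and 167 TPM in NMN 1, NMN 2 and NMN 3, all below the Vehicle range, and 237 TPM in NMN 4, within it. Of these markers 5 were tested and all 5 had the lower mean with NMN, 3 at an unadjusted p under 0.05, with DCN and LUM at 0 in 7 of the 8 tumors. The 7 adipocyte markers ran from 11.8 to 101 TPM and from 16.9 to 218 TPM, with ADIPOQ at 0 in 7 tumors. Summed levels of 8 endothelial markers (6.67 to 12.1 TPM in Vehicle and 10.3 to 12.0 TPM in NMN tumors) and of the 7 myeloid markers in the table (54.3 to 78.6 TPM and 51.4 to 92.2 TPM) overlapped between the groups, and the 10 epithelial markers ran from 9862 to 18449 TPM and from 10525 to 13244 TPM. Single markers within these overlapping sums differed in both directions. KDR (mean 3.94 TPM with NMN and 1.83 TPM with vehicle) and KRT8 (834 and 415 TPM) were higher in NMN tumors without overlap. Lower without overlap, at low levels, were TEK (0.14 and 0.44 TPM), PTPRC (0.17 and 0.31 TPM), PLIN4 (0.85 and 1.02 TPM) and LPL (0.275 and 1.05 TPM). TEK, PTPRC, PLIN4 and LPL did not reach the level needed for testing. Of the muscle markers, MYH4, which was tested, was also lower without overlap (3.09 TPM with NMN and 45.4 TPM with vehicle). Over all tested genes 2.08% were higher and 0.966% lower without overlap, and these shares do not cover the untested markers. The part of these other cells in the results was not tested. The hosts were mice, the build listed for processing is human, and what was done with mouse reads is unknown. These marker levels can therefore hold RNA of the human tumor cells or mouse reads placed on human genes. Which of these they hold was not tested, so they do not measure the amount of host cells. In whole tumors, fewer cells of a type and less RNA per cell cannot be told apart either. As for the label of the line, the progesterone receptor gene PGR was at 0.02 TPM or below in every tumor, and ESR1 and ERBB2 were at 4.74 ± 0.758 and 99.8 ± 22.4 TPM in Vehicle tumors.

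The promoters of 6 of these genes are shown because they hold the core of the HIF binding sequence, ACGTG or GCGTG on either strand, and because the genes span the range of the data. ANKRD37 and PPFIA4 are among the genes with the largest fold changes. ERO1A and INSIG2 encode an enzyme of the endoplasmic reticulum and a protein that retains the sterol sensor SCAP there. BHLHE40 and BHLHE41 encode a pair of related repressors with unlike values. Each window is from RefSeq on build GRCh38.p14, runs from 250 bases before to 50 bases after a start site, and is printed 5′ to 3′ on the strand of the gene, with matches to the core on either strand in capitals.
ANKRD37 (chr4:185396591-185396890, plus strand): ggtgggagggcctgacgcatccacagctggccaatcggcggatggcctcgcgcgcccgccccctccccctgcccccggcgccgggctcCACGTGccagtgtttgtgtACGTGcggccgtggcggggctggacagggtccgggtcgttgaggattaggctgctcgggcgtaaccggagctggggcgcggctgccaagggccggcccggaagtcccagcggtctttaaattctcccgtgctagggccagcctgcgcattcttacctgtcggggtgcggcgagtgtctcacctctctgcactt
PPFIA4 (chr1:203026241-203026540, plus strand): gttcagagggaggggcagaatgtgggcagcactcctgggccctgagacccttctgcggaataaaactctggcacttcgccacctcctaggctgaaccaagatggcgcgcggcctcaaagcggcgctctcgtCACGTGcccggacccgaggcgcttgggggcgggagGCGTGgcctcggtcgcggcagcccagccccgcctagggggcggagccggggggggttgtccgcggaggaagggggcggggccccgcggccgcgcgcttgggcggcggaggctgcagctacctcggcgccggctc
ERO1A (chr14:52695509-52695808, minus strand): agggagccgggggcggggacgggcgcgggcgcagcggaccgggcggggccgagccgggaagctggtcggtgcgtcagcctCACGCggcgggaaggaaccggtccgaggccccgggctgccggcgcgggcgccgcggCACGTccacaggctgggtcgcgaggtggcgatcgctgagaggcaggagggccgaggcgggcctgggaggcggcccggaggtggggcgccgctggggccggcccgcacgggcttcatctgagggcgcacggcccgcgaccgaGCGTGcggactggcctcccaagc
INSIG2 (chr2:118088300-118088599, plus strand): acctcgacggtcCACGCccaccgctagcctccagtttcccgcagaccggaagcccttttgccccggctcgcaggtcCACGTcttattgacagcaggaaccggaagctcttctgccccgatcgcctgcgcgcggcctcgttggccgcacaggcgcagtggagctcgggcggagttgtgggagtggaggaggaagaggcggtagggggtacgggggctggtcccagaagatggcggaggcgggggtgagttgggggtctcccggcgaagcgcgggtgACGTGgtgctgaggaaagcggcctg
BHLHE40 (chr3:4979187-4979486, plus strand): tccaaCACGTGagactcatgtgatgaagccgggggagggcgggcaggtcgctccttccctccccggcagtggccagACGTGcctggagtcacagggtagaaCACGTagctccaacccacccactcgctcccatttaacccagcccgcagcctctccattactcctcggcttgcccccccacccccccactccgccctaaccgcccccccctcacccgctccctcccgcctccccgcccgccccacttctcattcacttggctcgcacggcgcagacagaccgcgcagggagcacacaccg
BHLHE41 (chr12:26124988-26125287, minus strand): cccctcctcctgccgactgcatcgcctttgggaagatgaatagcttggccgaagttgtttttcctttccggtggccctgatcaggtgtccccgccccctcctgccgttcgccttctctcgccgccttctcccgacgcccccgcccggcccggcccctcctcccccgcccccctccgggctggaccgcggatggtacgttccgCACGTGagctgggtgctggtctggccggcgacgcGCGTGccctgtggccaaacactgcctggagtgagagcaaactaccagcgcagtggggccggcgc

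After overlapping matches were merged, the windows shown of ANKRD37, PPFIA4 and BHLHE41 held 2 separate matches each. Those of ERO1A, INSIG2 and BHLHE40 held 3. Another window of INSIG2 (chr2:118088221-118088520), not shown, held 2. Windows were given for 26 of the 32 genes, 38 windows in all since some genes have several start sites (FUT11 was matched by gene identifier, under the symbol POFUT4). At least 1 match to ACGTG or GCGTG was found in 23 of the 26 genes, or 88.5%, against 68.8% of the 10847 tested genes that have a window. Per window the shares were 81.6% of the 38 and 59.5% of the 15828 windows of tested genes. ACGTG was found in 17 of the 26 genes and 3471 of the 10847 tested genes, and GCGTG in 17 and 6188. The palindrome CACGTG, which contains ACGTG on both strands and is also the E-box bound by BHLHE40 and MYC family proteins, was found in 38.5% of the 26 genes and 12.5% of tested genes. ARRDC3, SLC6A8 and TMEM45A had no match to ACGTG or GCGTG in these windows, and their log2 fold changes were 0.52, 0.83 and 0.28. BHLHE41, with 2 matches, had the lowest fold change of the 32. The genes were chosen as known HIF targets, so these shares are no independent evidence, and a match describes the letters only.

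Among regulators of transcription and chromatin, 8 of 9 genes were higher in mean in NMN tumors, 5 of them at an unadjusted p under 0.05, and 0 passed over all genes. KDM3A, a demethylase of histone H3 that removes methyl groups from lysine 9 (chromosome 2, 86440647 to 86492716, plus strand), was at 49.4, 45.9, 45.3 and 36.1 TPM in Vehicle 1 to 4 and at 64.8, 88.2, 74.5 and 46.6 TPM in NMN 1 to 4. NMN 1, NMN 2 and NMN 3 stood above every Vehicle tumor, and NMN 4 stood below Vehicle 1. Its log2 fold change was 0.59 ± 0.18 (estimate ± SE, n = 4 per group, limma adjusted p = 0.375). KDM4B and KDM4C, demethylases of lysines 9 and 36, had smaller differences. KDM4B was at 17.8 ± 2.83 TPM (SD, n = 4) in NMN and 15.3 ± 4.25 TPM in Vehicle tumors, and KDM4C at 15.14 ± 1.026 and 13.03 ± 2.204 TPM, with the groups overlapping in both. For KDM4C the highest of the 8 values was in NMN 4.

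BHLHE40 and BHLHE41, also called DEC1 and DEC2, are circadian and stress-responsive repressors that bind E-boxes. BHLHE40 (chromosome 3, 4979116 to 4985323, plus strand) was at 248, 397, 167 and 153 TPM in Vehicle 1 to 4 and at 363, 529.8, 550.4 and 267 TPM in NMN 1 to 4. Only NMN 2 and NMN 3 stood above every Vehicle tumor, since Vehicle 2 was above NMN 1 and NMN 4, and the log2 fold change was 0.87 ± 0.30 (limma adjusted p = 0.500). BHLHE41 (chromosome 12, 26120026 to 26125127, minus strand) was at 21.4, 18.9, 26.4 and 14.6 TPM in Vehicle tumors and at 13.8, 21.6, 21.6 and 23.1 TPM in NMN tumors. Its highest value was in Vehicle 3 and its lowest in NMN 1, the groups overlapped, and its log2 fold change of -0.02 ± 0.20 (95% interval from -0.45 to 0.42) was the lowest of the 32. The sign of this value turned when NMN 1, Vehicle 1 or Vehicle 3 was left out, to 0.14, 0.02 and 0.11.

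MXI1, which competes with MYC for its partner MAX, was at 29.7, 30.6, 31.4 and 23.8 TPM in Vehicle tumors and at 35.5, 43.0, 41.6 and 31.2 TPM in NMN tumors. All but NMN 4 were above the Vehicle range, and NMN 4 was just below Vehicle 3. CITED2 encodes a protein that competes with HIF for the coactivators CBP and p300 and so acts as a brake on the pathway. It was at 158, 140.1, 115 and 64.7 TPM in Vehicle tumors and at 153, 232, 186 and 135 TPM in NMN tumors. Only NMN 2 and NMN 3 exceeded Vehicle 1, and the log2 fold change of 0.60 ± 0.25 became 0.34 when Vehicle 4, the lowest tumor, was left out. PNRC1, a small nuclear receptor coactivator, was at 99.5, 98.9, 84.7 and 66.6 TPM in Vehicle tumors and at 104, 127, 127 and 94.9 TPM in NMN tumors, where NMN 4 again fell inside the Vehicle range. ZNF395, a zinc finger transcription factor, was at 17.8 ± 3.67 TPM in NMN and 14.4 ± 2.36 TPM in Vehicle tumors, with overlap.

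Of the secreted and surface proteins, all 6 had the higher mean in NMN tumors, 4 of them at an unadjusted p under 0.05, and 0 passed over all genes. STC1, the glycoprotein hormone stanniocalcin 1, was at 0.920, 0.950, 0.420 and 0.320 TPM in Vehicle 1 to 4 and at 2.46, 3.70, 4.67 and 1.80 TPM in NMN 1 to 4. All NMN tumors, NMN 4 included, stood above all Vehicle tumors, at levels that were low in both groups. The log2 fold change was 1.30 ± 0.24 (limma adjusted p = 0.221), and it depended on the pseudocount, with 2.14 for a pseudocount of 0.1 and 0.52 for one of 5. Since STC1 was tested only because every NMN value reached 1 TPM while no Vehicle value did, the separation of its groups was set by the filter, and no permutation p is given. STC2, its paralog, which is also induced by stress of the endoplasmic reticulum, was at 10.5, 13.6, 15.2 and 21.5 TPM in Vehicle tumors and at 22.8, 24.8, 34.9 and 15.3 TPM in NMN tumors. In contrast to STC1, NMN 4 was below Vehicle 4, and the log2 fold change was 0.64 ± 0.25 (limma adjusted p = 0.603).

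VLDLR, the very low density lipoprotein receptor (chromosome 9, 2621834 to 2660053, plus strand), was at 5.83, 5.20, 6.22 and 4.04 TPM in Vehicle tumors and at 8.64, 14.4, 14.2 and 5.89 TPM in NMN tumors. Again 3 NMN tumors stood above the Vehicle range and NMN 4 within it, with a log2 fold change of 0.83 ± 0.25 (limma adjusted p = 0.396). MIF, a cytokine that is among the most abundant of the 32 transcripts (chromosome 22, 23894004 to 23895227, plus strand), varied little among Vehicle tumors, at 1390.0, 1469, 1305 and 1365 TPM. In NMN tumors it was at 1767, 1793, 2152 and 1446 TPM, so NMN 4 lay just below Vehicle 2, and the log2 fold change was 0.36 ± 0.12 (limma adjusted p = 0.471). The ephrin ligands EFNA1 and EFNA3, which signal through EPH receptors on neighboring cells, were at 73.3 ± 4.66 and 44.0 ± 6.60 TPM in NMN tumors and at 62.8 ± 7.005 and 38.4 ± 4.36 TPM in Vehicle tumors, and the groups overlapped for both.

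**Figure D3:**
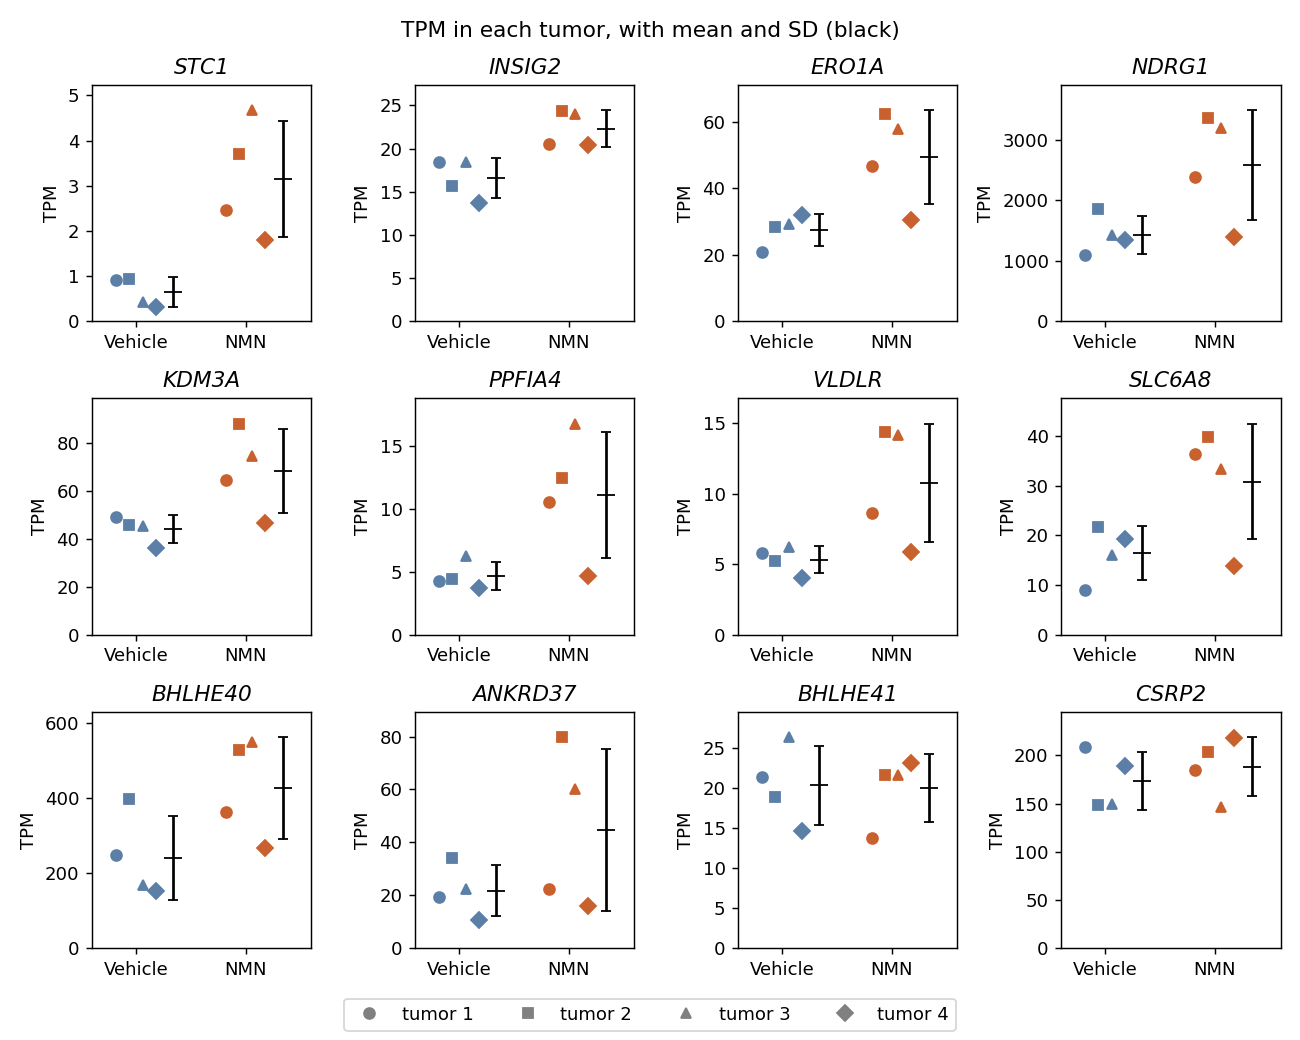
TPM of 12 of the genes on linear axes from 0, with Vehicle tumors in blue and NMN tumors in orange, a marker shape for each tumor number, and the mean with SD (n = 4) in black. The groups do not overlap for STC1 and INSIG2, NMN 4 (diamond) falls to Vehicle levels for ERO1A, NDRG1, KDM3A, PPFIA4, VLDLR and SLC6A8, and BHLHE41 and CSRP2 show no separation.

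All 5 proteins of the endoplasmic reticulum, Golgi and lipid droplet had the higher mean in NMN tumors, 3 at an unadjusted p under 0.05, and 0 passed over all genes. ERO1A is an oxidase that passes electrons to oxygen as new disulfide bonds are made (chromosome 14, 52639916 to 52695900, minus strand). It was at 20.7, 28.5, 29.4 and 31.8 TPM in Vehicle tumors and at 46.8, 62.2, 57.8 and 30.6 TPM in NMN tumors. NMN 1 to 3 stood well above the Vehicle range and NMN 4 between Vehicle 3 and Vehicle 4, with a log2 fold change of 0.78 ± 0.21 (limma adjusted p = 0.341). INSIG2, which retains the sterol sensor SCAP in the endoplasmic reticulum (chromosome 2, 118088452 to 118110997, plus strand), was at 18.5, 15.7, 18.4 and 13.7 TPM in Vehicle tumors and at 20.5, 24.3, 24.0 and 20.4 TPM in NMN tumors. It is the other gene whose groups did not overlap (exact two-sided permutation p = 0.0286, unadjusted, the smallest that 4 against 4 can give), and NMN 4 stood beside NMN 1. The log2 fold change of INSIG2 was 0.41 ± 0.13 (limma adjusted p = 0.455).

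HILPDA, an inhibitor of the lipase ATGL that sits on lipid droplets, was at 41.2, 60.6, 51.8 and 27.9 TPM in Vehicle tumors and at 59.1, 125, 93.6 and 37.9 TPM in NMN tumors. Only NMN 2 and NMN 3 were above Vehicle 2, and the log2 fold change of 0.70 ± 0.33 became 0.44 without NMN 2. TMEM45A, a transmembrane protein, was at 409, 476, 422 and 352 TPM in Vehicle tumors and at 539.8, 554, 488 and 431 TPM in NMN tumors, with a log2 fold change of 0.28 ± 0.11. FUT11, a fucosyltransferase, was at 3.68 ± 1.23 TPM in NMN and 2.70 ± 0.877 TPM in Vehicle tumors, with overlap.

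Of the mitochondrial and energy genes all 4 had the higher mean, 1 at an unadjusted p under 0.05. That gene was SLC6A8, the creatine transporter (chromosome X, 153688099 to 153696593, plus strand), at 8.99, 21.6, 16.0 and 19.4 TPM in Vehicle tumors and 36.5, 39.8, 33.4 and 13.8 TPM in NMN tumors. The first 3 NMN tumors were close to each other and above Vehicle 2, whereas NMN 4 was above Vehicle 1 only (log2 fold change 0.83 ± 0.33, limma adjusted p = 0.614). AK4, an adenylate kinase of the mitochondrial matrix, was at 17.4 ± 3.13 TPM in NMN and 12.7 ± 4.67 TPM in Vehicle tumors, and its log2 fold change of 0.48 ± 0.23 became 0.30 without Vehicle 1. FAM162A, a mitochondrial protein tied to cell death under hypoxia, was at 80.3 ± 6.34 and 68.9 ± 9.12 TPM. NOL3, the apoptosis repressor ARC, was at 38.5, 35.0, 40.7 and 32.2 TPM in Vehicle tumors and at 36.6, 32.1, 47.7 and 38.5 TPM in NMN tumors. Its highest value was in NMN 3 and its lowest in NMN 2, and the log2 fold change was 0.07 ± 0.13 and turned to -0.031 without NMN 3.

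Among trafficking, ubiquitin and stress proteins all 5 had the higher mean and 3 an unadjusted p under 0.05, while 0 passed over all genes. NDRG1, a stress-responsive protein widely used as a marker of hypoxia, was the most abundant of the 32 in the mean over all tumors, at 1097, 1852, 1427 and 1346 TPM in Vehicle tumors and at 2389, 3365, 3195 and 1389 TPM in NMN tumors. NMN 1 to 3 exceeded every Vehicle tumor, and NMN 4 fell between Vehicle 4 and Vehicle 3 (log2 fold change 0.80 ± 0.25, limma adjusted p = 0.438). ANKZF1, a factor that releases stalled chains from the ribosome, was at 17.7, 15.0, 14.9 and 11.1 TPM in Vehicle tumors and at 19.2, 23.1, 26.4 and 15.3 TPM in NMN tumors, and 3 NMN tumors stood above the Vehicle range. ARRDC3, an arrestin-like protein that promotes the turnover of surface receptors, was at 47.0, 42.6, 40.3 and 20.3 TPM in Vehicle tumors and at 49.7, 61.1, 53.5 and 44.2 TPM in NMN tumors. Its log2 fold change of 0.52 ± 0.22 rested partly on Vehicle 4 and was 0.26 without that tumor. WSB1, the substrate receptor of a ubiquitin ligase, was at 66.6 ± 14.2 TPM in NMN and 52.5 ± 5.20 TPM in Vehicle tumors, and RAB20, a small GTPase of endosomes and phagosomes, at 5.89 ± 0.647 and 5.13 ± 2.08 TPM. For RAB20 the highest value of the 8 was in Vehicle 3.

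The last 3 genes encode ankyrin, LIM and scaffold proteins. PPFIA4, a liprin of synaptic and adhesion scaffolds (chromosome 1, 203026498 to 203078740, plus strand), was at 4.29, 4.44, 6.27 and 3.72 TPM in Vehicle tumors and at 10.5, 12.4, 16.8 and 4.68 TPM in NMN tumors. After STC1 it had the largest log2 fold change, 1.00 ± 0.30 (limma adjusted p = 0.389), with NMN 4 between Vehicle 2 and Vehicle 3. ANKRD37, a small ankyrin repeat protein (chromosome 4, 185396021 to 185400628, plus strand), was at 19.2, 34.2, 22.4 and 10.8 TPM in Vehicle tumors and at 22.5, 79.9, 60.3 and 15.8 TPM in NMN tumors. It spread most within the NMN group, 5.05-fold from lowest to highest, and NMN 1 and NMN 4 both lay inside the Vehicle range. Its log2 fold change of 0.83 ± 0.47 (95% interval from -0.20 to 1.86) became 0.46 without NMN 2 and 0.55 without Vehicle 4. CSRP2, a LIM protein of actin bundles, was at 209, 148, 149.5 and 189 TPM in Vehicle tumors and at 185, 204, 147 and 218 TPM in NMN tumors, with NMN 4 highest, NMN 3 lowest and a log2 fold change of 0.12 ± 0.15. With 1 tumor left out, the CSRP2 value ran from 0.040 without NMN 4 to 0.23 without NMN 3.

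**Figure D4:**
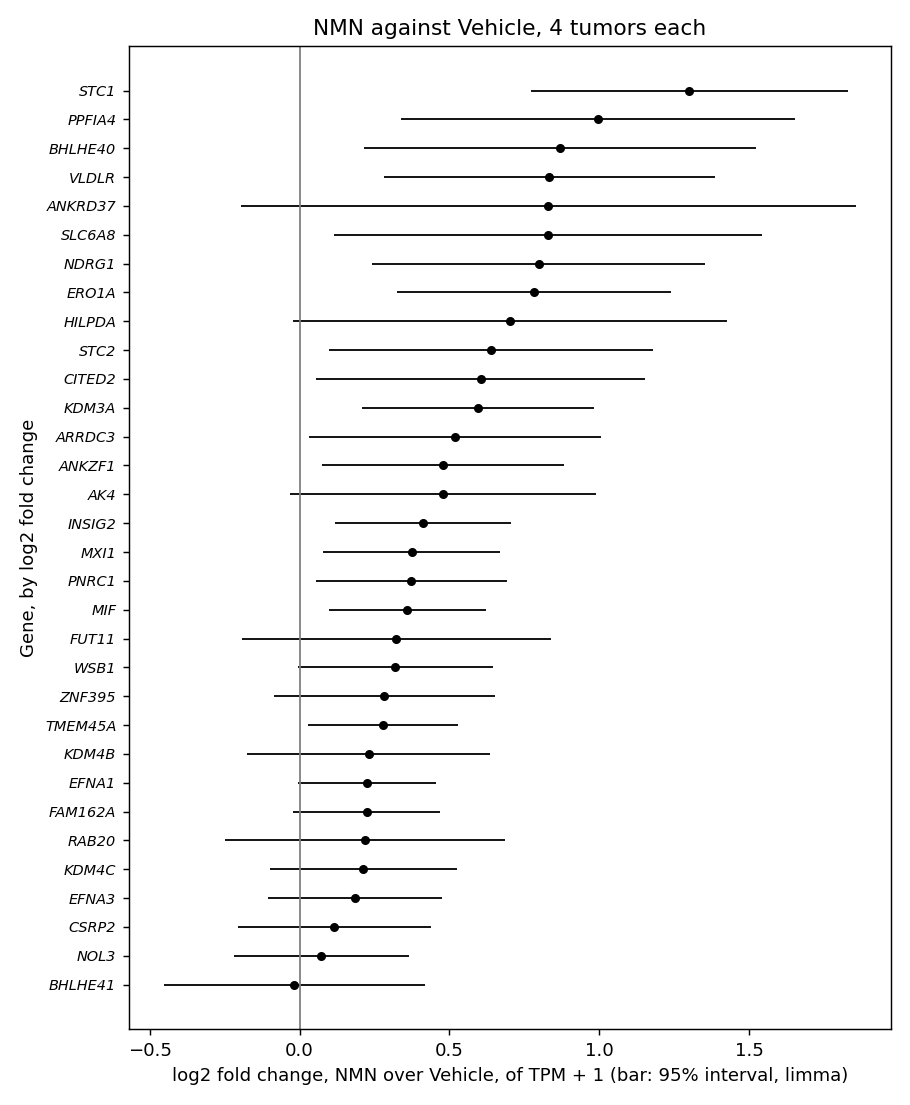
Points give the log2 fold change of TPM + 1, NMN over Vehicle, for each of the 32 genes in order of size, with 95% intervals from limma that are not adjusted for the number of genes. Values run from -0.02 for BHLHE41 to 1.30 for STC1.

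Leaving out NMN 4 changed what passed the test. Without it limma called 54 genes over the whole table, 27 higher and 27 lower, and 4 of the 32 were among the higher ones (PPFIA4, STC1, ERO1A and NDRG1), against 0.202% of all tested genes, or 3 of 31 without STC1, which had to differ. Their log2 fold changes were then 1.32, 1.47, 0.99 and 1.07, with limma adjusted p-values of 0.0271, 0.0284, 0.0334 and 0.0398. Over all settings tried these ran from 0.0271 to 1.000, from 0.0284 to 0.630, from 0.0334 to 0.938 and from 0.0398 to 1.000. Without NMN 4, 24 of the 32 had an unadjusted p under 0.05 with the higher mean, against 4.67% of all tested genes. That tumor carries the same label as the other 3, and nothing in the labels sets it apart. It stands out here by its low values in these same 32 genes, so their larger counts without it follow from that choice and are no separate evidence. Low values in NMN 4 were not particular to the 32 genes, since other lists of HIF targets, given below, shared them. Leaving out NMN 1, NMN 2 or NMN 3 instead gave 0 genes called.

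Other genes of the pathway were examined by list. Of the HIF subunits and oxygen sensors 8 of 10 were tested, 5 with the higher and 3 with the lower mean, at a median log2 fold change of 0.04, and 0 passed. The alpha subunit genes HIF1A and EPAS1 stood at 148 ± 6.33 and 66.1 ± 6.65 TPM with NMN and at 157 ± 31.96 and 73.1 ± 3.88 TPM with vehicle, and HIF1AN, the asparaginyl hydroxylase, at 11.9 ± 2.09 and 13.01 ± 1.84 TPM. EGLN1 and EGLN3, prolyl hydroxylases that are themselves HIF targets, stood at 34.9 ± 3.68 and 110.3 ± 59.4 TPM with NMN and at 26.5 ± 2.37 and 51.7 ± 14.0 TPM with vehicle. For EGLN1 the groups did not overlap, with NMN higher, as for 2.08% of all tested genes. Of 23 tested HIF targets of glycolysis and glucose uptake all 23 had the higher mean, against 51.0% of all tested genes. Of these, 14 had an unadjusted p under 0.05, against 4.79% of all tested genes with NMN higher, and the median log2 fold change was 0.41. ALDOC, GPI, ENO1 and ENO2, which had the smallest p of that list, had log2 fold changes of 1.19, 0.44, 0.33 and 1.02. Of 16 HIF targets of pH control, vessels, matrix and mitophagy, 15 had the higher mean, 11 at an unadjusted p under 0.05, with a median of 0.64. The shares of all tested genes are the same as for the glycolysis list. The mitophagy receptor BNIP3, the mTORC1 inhibitor DDIT4, the lysyl hydroxylase PLOD1 and the carbonic anhydrase CA9 had log2 fold changes of 1.09, 1.23, 0.58 and 1.29, and CA12 was the 1 gene with the lower mean, at -0.38 ± 0.19. None of these genes passed over all genes (smallest limma adjusted p = 0.221), and the difference between these lists and the 32 genes was not tested. These lists too were chosen with earlier results of these data known, so they are no independent repeat. NMN 4 was low in both target lists as well. Relative to each gene's mean over the 8 tumors, the glycolysis list averaged 0.25, 0.36 and 0.47 on the log2 scale in NMN 1 to 3. In NMN 4 it averaged -0.19, and in Vehicle tumors from -0.36 to -0.13. The list of pH control, vessels, matrix and mitophagy averaged 0.28, 0.47 and 0.59 in NMN 1 to 3. It averaged -0.12 in NMN 4 and from -0.41 to -0.17 in Vehicle tumors.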

How the data were processed

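RNA-seq libraries of 8 tumors, 4 NMN and 4 Vehicle, were compared. The table deposited by the authors holds TPM per gene, as its column names say. RSEM 1.2.8, Bowtie2 2.2.5, HISAT2 2.1.0 and build GRCh38.p13 are listed, without roles, in the notes on processing (per the submitters' processing notes). How mouse reads were handled, the strand and the read depth are not given in the sources used here, and TPM keeps no depth, so no counting interval is given. Groups came from the sample titles.

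Genes at 1 TPM or more in at least 4 of the 8 libraries were tested, 13358 in all, with limma 3.58.1 in R 4.3.3 (mean-variance trend, group as the only term, two-sided, Benjamini-Hochberg over all tested genes at 0.05) on log2(TPM + 1). The pipeline was tested on simulated data with known changes. Single values were compared by exact permutation. Errors are SD for levels and SE for fold changes. Values in every tumor are given for genes with no overlap or an unadjusted p under 0.05 and for the 3 lowest fold changes, and of each pathway list the 4 genes with the smallest p are named; HIF1A and CA12, and the values in every tumor of HILPDA and ANKRD37, were added after their values were seen. The 32 genes and all lists were chosen with earlier results of these data known, and ERO1A was in a list reported on before, so no test was made over a list. Alternatives were other pseudocounts, filters and scalings, no trend, weights per library, a replicate block and each tumor left out in turn. Gene positions are from GENCODE 29 (GRCh38). Without known strand, reads of a gene and of an antisense overlap cannot be told apart, which touches BHLHE40, BHLHE41, MIF, VLDLR, ERO1A, SLC6A8, ARRDC3, ANKRD37 and others with an exon overlap on the opposite strand.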

Additional observations from a re-analysis of the deposited data

Results flagged for a closer look

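Of 64 groups of 4 values examined (32 genes in each treatment group), 4 held a tumor that stood apart from the other 3. The ratio of Dixon's test was taken on log2(TPM + 1) and exceeded its 95% critical value in these 4. Chance flags about 1 in 20 groups. Levels are printed in TPM, on which the ratio was not taken and a flag may not hold. In NMN 1, BHLHE41 was at 13.8 TPM against 21.6 to 23.1 TPM in the other NMN tumors. In Vehicle 3, ZNF395 was at 17.9 TPM against 13.1 to 13.3 TPM. In Vehicle 1, EFNA3 was at 31.9 TPM against 40.1 to 41.4 TPM. In NMN 4, SLC6A8 was at 13.8 TPM against 33.4 to 39.8 TPM.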

How the results depend on the processing

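Of 542 values of single genes under the settings tried, 533 kept both their sign and their side of the threshold, 4 changed sign and 5 passed where the main value did not. With library weights limma called 54 of 13358 genes, 23 higher and 31 lower with NMN. Among the 32 it called 1 (STC1, adjusted p = 0.0466, range from 0.0284 to 0.630 over its settings), which entered the test only through the NMN tumors, and 0 of the other 31. With median-of-ratios scaling 11 of the 32 had an unadjusted p under 0.05 with the higher mean, against 5.12% of all tested genes. With 1 tumor left out, the genes called ran from 0 (without NMN 1) to 54 (without NMN 4), 1 being called without Vehicle 3. Those called among the 32 ran from 0 to 4 (without NMN 4), and those with an unadjusted p under 0.05 from 10 (without NMN 2 or NMN 3) to 24 (without NMN 4). The number with the higher mean ran from 30 (without NMN 3) to 32, and their median from 0.33 (without Vehicle 4) to 0.49 (without NMN 4). With 1 tumor left out, the log2 fold change of BHLHE41 ran from -0.16 (without Vehicle 4) to 0.14 (without NMN 1). That of NOL3 ran from -0.031 (without NMN 3) to 0.15 (without NMN 2). With library weights these values were -0.29 for BHLHE41 and 0.045 for NOL3. Tumors with the same number did not deviate together (correlations from -0.12 to 0.03 over 4 pairs). With the replicate number as a block limma called 2 genes, none of the 32, and 20 of the 32 had an unadjusted p under 0.05 with NMN higher, against 5.38% of all tested genes. Leaving out STC1 was added after seeing the data. TPM keeps no depth, so the precision of low genes such as STC1 and FUT11 is unknown.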
